A study of Mus musculus with 16 samples.

Results

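The circadian clock genes examined here were Arntl, Clock, Npas2, Per1, Per2, Per3, Nr1d1, Nr1d2, Dbp and Tef, 10 genes chosen by symbol from the 22372 genes in the deposited table. All 10 were matched to a single Ensembl identifier, and all 10 passed the filter on low values that left 13331 genes to test. They were followed in 16 libraries of ventricle from C57BL/6J mice. There were 4 libraries per group, Sham-Veh and TAC-Veh on vehicle and Sham-THZ1 and TAC-THZ1 on drug. The mice were 10 to 12 weeks old at the start and, per the study's methods, male and kept on a light/dark cycle of 12 h each. TAC is transverse aortic constriction, a suture around the aortic arch that loads the left ventricle with pressure, and sham mice had the same operation without the suture. THZ1, a covalent inhibitor of the transcription kinases CDK7, CDK12 and CDK13, was injected into the peritoneum. The labels give 10 mg/kg with 2 injections daily that began on day 1 after the operation and ended on day 60. The study's methods describe the injections as daily over the same days, with a different dose figure. The Veh groups are labelled as vehicle. The labels name no transgene or deletion in any group. The hour of harvest was not given in the sources used here, so it cannot be told apart from the groups.

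The clock is a loop of transcription and translation that runs in nearly every cell, cardiomyocytes included. Arntl (BMAL1) pairs with Clock or its relative Npas2 and switches on genes that hold an E-box, among them Per1, Per2, Per3, Nr1d1, Nr1d2, Dbp and Tef. The PER proteins, with cryptochromes, then block that pair. Nr1d1 and Nr1d2 (REV-ERB alpha and beta) repress Arntl and Npas2, and Dbp and Tef are PAR bZIP factors that carry the rhythm to output genes through D-boxes. In mice, Arntl mRNA peaks near the change from night to day, Nr1d1 and Dbp peak during the day, and Per1 and Per2 peak near evening. The genes therefore served to ask 2 questions, whether the clock differed between failing and sham hearts and how far mice of a group stood apart in clock state.

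The libraries held 21.4 to 35.8 M (mega) counted reads, so the rarest member, Npas2, still had 42.4 to 104 normalized counts. Normalized counts are reads divided by the size factor of the library. Tnnt2, a heart muscle gene, was at 118900 normalized counts or more in every library. Of 4 atrial genes, Sln and Myl7 were at no more than 4.05 and 6.44, which fitted the label of ventricle. With Myl4 and Nppa, the 4 summed to 2771 to 4577 in Sham-Veh and 49247 to 199870 in TAC-Veh. Nppa, which the study uses as a marker of cardiomyocyte stress, was called higher with TAC. TAC-Veh replicate 1 stood apart. It had the highest level of 9 of 10 glucocorticoid-responsive genes, with a summed level of 75250 normalized counts, against 11175 to 34415 in the other 15 libraries. Its Fkbp5, a classical glucocorticoid target, was at 3445 normalized counts, while the other libraries held 348 to 1123. Of 8 immediate early genes, which answer to handling and also act on Per1, TAC-Veh replicate 2 had 3 at their highest level and TAC-Veh replicate 1 had 2. Sham-THZ1 replicate 3 had 2 as well, and Sham-THZ1 replicate 2 had 1. With TAC under vehicle, 3 of these 8 and 2 of the 10 glucocorticoid-responsive genes were called higher, where 21.4% of all genes were. Klf9 of the 10 was called lower, where 23.6% of all genes were. The part of both lists in the clock values was not tested. Per1 is itself induced by glucocorticoids, so the member values that use TAC-Veh, and the calls of other genes that turn on it, are given without this library too.

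Promoter sequence was searched for clock motifs, and 4 windows that held one are shown so that the letters can be read beside the values. The 250 bases before the annotated start were read from RefSeq on GRCm38.p6, a later build than the NCBIM37 (mm9) coordinates of the counts. Of the 10 members, 9 had an entry, with 14 starts, and Per2 was not among them. The motifs were the E-box CACGTG, the E'-box CACGTT, the D-box TTANGTAA, the core TAGGTCA of the ROR element, and the cAMP element TGACGTCA, on both strands. No match in a member window overlapped another. Over 32851 start windows, 6.02% held the E-box, 3.85% the E'-box, 2.06% the D-box, 2.23% the ROR core and 1.55% the cAMP element. Among the members, Per1 and Tef held the E-box, Nr1d1 the E'-box, Per3 the D-box at 2 places, and none the ROR core or the cAMP element. Capitals mark the matches. The windows are chr4:151044666-151044915 (minus strand) for Per3, chr11:98775378-98775627 (minus strand) for Nr1d1, chr11:69098699-69098948 (plus strand) for Per1, and chr15:81811164-81811413 (plus strand) for a Tef start.
Per3: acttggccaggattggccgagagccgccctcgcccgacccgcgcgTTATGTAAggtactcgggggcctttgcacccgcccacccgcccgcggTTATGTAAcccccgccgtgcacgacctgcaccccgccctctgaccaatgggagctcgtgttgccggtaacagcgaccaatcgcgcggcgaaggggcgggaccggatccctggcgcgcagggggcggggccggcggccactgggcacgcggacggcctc
Nr1d1: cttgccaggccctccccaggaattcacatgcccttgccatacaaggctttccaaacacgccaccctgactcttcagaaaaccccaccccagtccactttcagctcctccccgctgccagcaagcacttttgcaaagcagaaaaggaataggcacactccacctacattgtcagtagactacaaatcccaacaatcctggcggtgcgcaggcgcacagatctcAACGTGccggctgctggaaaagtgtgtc
Per1: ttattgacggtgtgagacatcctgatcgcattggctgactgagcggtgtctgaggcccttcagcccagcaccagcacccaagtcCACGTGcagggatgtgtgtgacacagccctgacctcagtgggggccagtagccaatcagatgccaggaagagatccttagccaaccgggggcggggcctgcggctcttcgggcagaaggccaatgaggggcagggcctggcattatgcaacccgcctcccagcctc
Tef: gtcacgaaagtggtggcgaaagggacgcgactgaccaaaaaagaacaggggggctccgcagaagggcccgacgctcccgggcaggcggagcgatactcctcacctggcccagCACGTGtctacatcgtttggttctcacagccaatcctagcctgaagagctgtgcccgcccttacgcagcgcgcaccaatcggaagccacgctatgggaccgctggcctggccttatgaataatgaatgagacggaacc
The letters describe these windows alone. Other elements of these genes, such as those in introns, were not searched.

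Levels can be compared between genes once divided by the length of the exons. On this scale of normalized counts per kilobase, Dbp had the highest mean over the 16 libraries, at 833, followed by Nr1d1 at 736, Nr1d2 at 725 and Tef at 524. Per1 (257), Per2 (140), Per3 (112) and Clock (92.4) came next. Arntl was at 47.4 and Npas2 at 13.7. The range of each gene overlapped that of its neighbour in this order, as in Dbp at 496 to 1265 and Nr1d1 at 481 to 1041. Across the extremes there was no overlap. In every library Dbp was above Arntl per kilobase, by 7.13-fold to 58.4-fold, and Nr1d1 was above Arntl by 8.31-fold to 40.3-fold. The ratio of Dbp to Arntl averaged 34.7 ± 17.2 in Sham-Veh (SD, n = 4) and 14.8 ± 6.96 in Sham-THZ1. In TAC-Veh it averaged 13.8 ± 8.95, and in TAC-THZ1 29.1 ± 18.2.

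**Figure D1:**
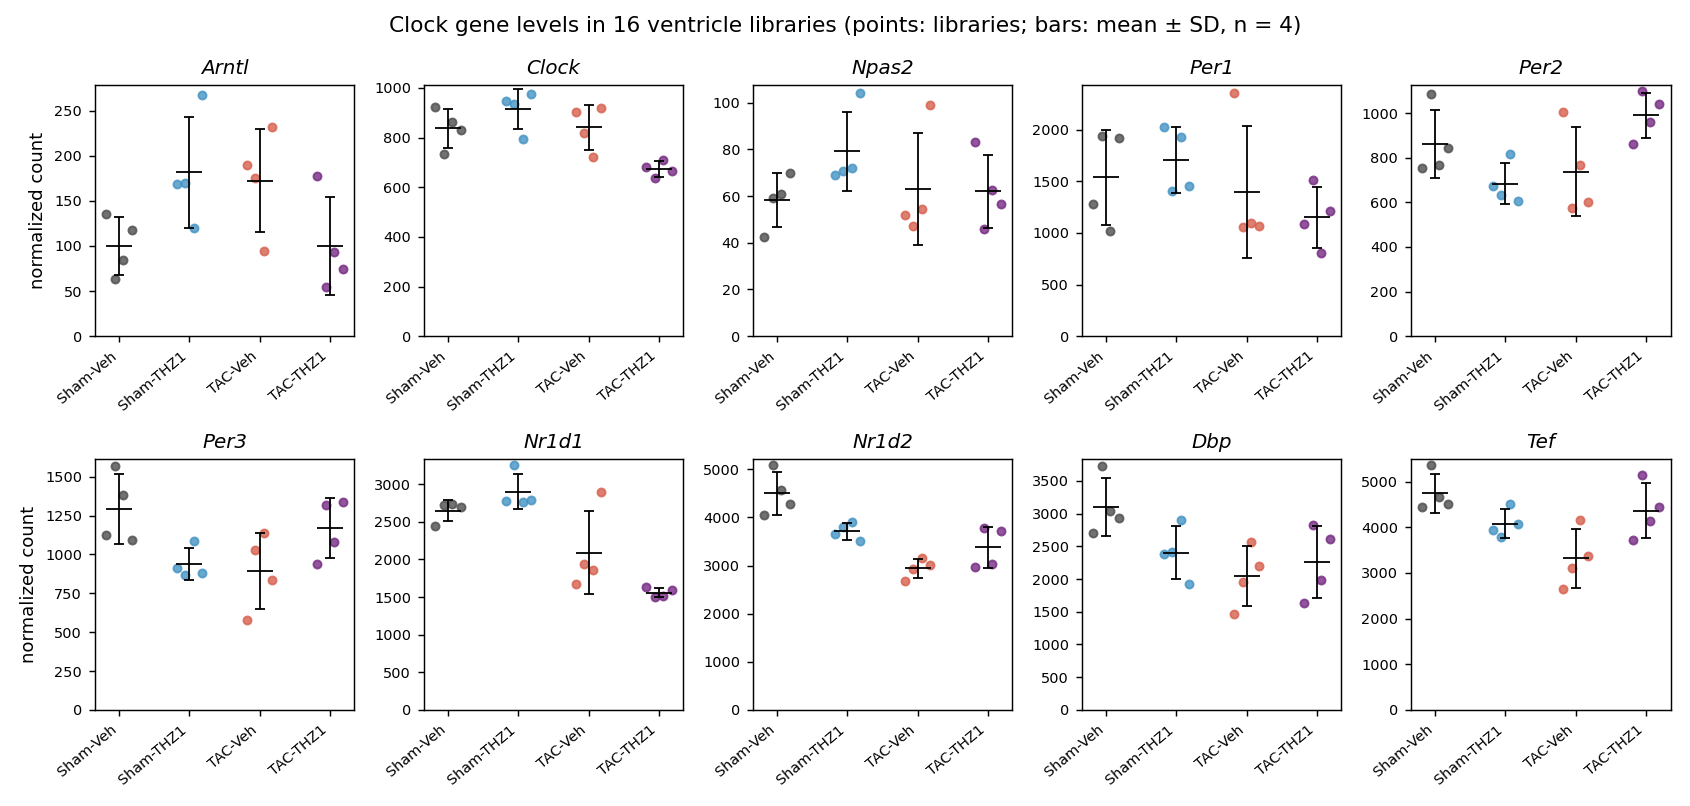
Normalized counts (y axis, linear from 0) of the 10 clock genes in the 4 groups (x axis). Each point is a library and bars give the mean ± SD of 4 libraries. Nr1d2, Dbp and Tef lie lower in TAC-Veh than in Sham-Veh without overlap, Nr1d1 is lowest in TAC-THZ1, and TAC-Veh replicate 1 is the single high point of Per1 at 2354.

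Under vehicle, TAC hearts had lower levels of the output factors and REV-ERB genes. Per3, Nr1d1, Nr1d2, Dbp and Tef fell, to between 0.652-fold and 0.772-fold of Sham-Veh. No member was called higher, although Arntl was at 1.70-fold. The share of members that fell, 5 of 10, stands against 23.6% of all tested genes called lower and 21.4% called higher in the same comparison. Nr1d2, Dbp and Tef did not overlap between the groups, 3 of 10 where 37.3% of all genes did not. The median log2 fold change was -0.31 over the members and -0.00302 over all genes.

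Nr1d2 (ENSMUSG00000021775, chr14:19036568-19071641, minus strand) was at 4045, 5098, 4561 and 4282 normalized counts in Sham-Veh and at 2672, 2929, 3148 and 3006 in TAC-Veh. All TAC-Veh libraries were below all Sham-Veh libraries. The log2 fold change was -0.61 ± 0.09 (SE; limma, adjusted p = 4.74e-05), and the call held when any library was left out (-0.57 and 0.000157 without TAC-Veh replicate 1). Its paralog Nr1d1 (ENSMUSG00000020889, chr11:98629246-98636647, minus strand) was at 2440, 2729, 2736 and 2698 in Sham-Veh and at 1680, 1934, 1855 and 2899 in TAC-Veh. TAC-Veh replicate 4 was above every Sham-Veh library while the other TAC-Veh libraries were below them. Nr1d1 fell by 0.37 ± 0.12 on the log2 scale (adjusted p = 0.0185), and its call was lost without TAC-Veh replicate 1 (log2 fold change -0.28, adjusted p = 0.0620) or without TAC-Veh replicate 3. Nr1d1 shares 263 exon bases with Thra on the opposite strand, and reads were counted by strand.

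Dbp (ENSMUSG00000059824, chr7:52960458-52965525, plus strand) was at 2702, 3725, 3032 and 2926 normalized counts in Sham-Veh. In TAC-Veh it was at 1461, 1958, 2566 and 2198, below every Sham-Veh library. The log2 fold change was -0.62 ± 0.18 (adjusted p = 0.0114), or -0.46 without TAC-Veh replicate 1 (adjusted p = 0.0392). Dbp shares 491 exon bases with the opposite-strand gene Sphk2, whose mean of 410 normalized counts was below the 2453 of Dbp. Tef (ENSMUSG00000022389, chr15:81632851-81657291, plus strand) was at 4435, 5365, 4658 and 4515 in Sham-Veh and 2637, 3102, 4165 and 3375 in TAC-Veh. The groups did not overlap, and the log2 fold change was -0.53 ± 0.12 (adjusted p = 0.00199). It was -0.43 without TAC-Veh replicate 1 (adjusted p = 0.00603). Tef shares 193 exon bases with a lincRNA on the opposite strand.

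Among the period genes, which feed back on the activators, only Per3 passed the test with TAC. Per3 (ENSMUSG00000028957, chr4:150377761-150418774, minus strand) was at 1124, 1567, 1380 and 1094 in Sham-Veh and at 576, 1027, 1139 and 833 in TAC-Veh, with TAC-Veh replicate 1 the lowest. It fell by 0.56 ± 0.18 on the log2 scale (adjusted p = 0.0173). Without TAC-Veh replicate 1 the log2 fold change was -0.36 (adjusted p = 0.0542), and without Sham-Veh replicate 2 the adjusted p was 0.0639. Per1 (ENSMUSG00000020893, chr11:68908719-68923462, plus strand) had a mean of 1538 ± 462 in Sham-Veh (SD, n = 4) and 1394 ± 640 in TAC-Veh, with a log2 fold change of -0.18 ± 0.26 (adjusted p = 0.598). Most of the TAC-Veh spread lay in replicate 1, at 2354, while the other 3 libraries were at 1054, 1099 and 1068. Per2 (ENSMUSG00000055866, chr1:93312561-93355907, minus strand) was at 1006 in that library and at 573, 769 and 603 in the others. Its log2 fold change was -0.25 ± 0.16 (adjusted p = 0.219) with all libraries and -0.41 without TAC-Veh replicate 1, where it passed (adjusted p = 0.0235). For Per1 the value without that library was -0.47 (adjusted p = 0.0980).

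The activators did not pass the test with TAC. Arntl (ENSMUSG00000055116, chr7:120350979-120457636, plus strand) was at 136, 63.4, 84.0 and 117 normalized counts in Sham-Veh and at 189, 175, 94.1 and 232 in TAC-Veh. The groups overlapped in TAC-Veh replicate 3, which was below 2 Sham-Veh libraries. The log2 fold change was 0.77 ± 0.35, with an adjusted p of 0.0824, and 0.70 without TAC-Veh replicate 1 (adjusted p = 0.148). DESeq2 on the recovered reads called 6 members in place of 5 because it added Arntl, and edgeR called 5. Clock (ENSMUSG00000029238, chr5:76639992-76733817, minus strand) differed by 0.01 ± 0.09 on the log2 scale (adjusted p = 0.969). Npas2 (ENSMUSG00000026077, chr1:39250576-39420079, plus strand) differed by 0.07 ± 0.23 (adjusted p = 0.828). Without TAC-Veh replicate 1 these were -0.0312 for Clock and 0.14 for Npas2.

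Marker genes of heart cell types moved with TAC too. The summed level of 6 cardiomyocyte genes was 1191173 to 1274357 normalized counts in Sham-Veh and 641541 to 931154 in TAC-Veh, with 3 of 6 called lower (Myh6, Ryr2 and Tnni3). The sum of 6 fibroblast genes was 21228 to 23468 in Sham-Veh and 41048 to 59915 in TAC-Veh, with 4 of 6 called higher. The part of these shifts in the clock values was not tested, and in bulk tissue fewer cells of a type and less RNA per cell cannot be told apart.

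**Figure D2:**
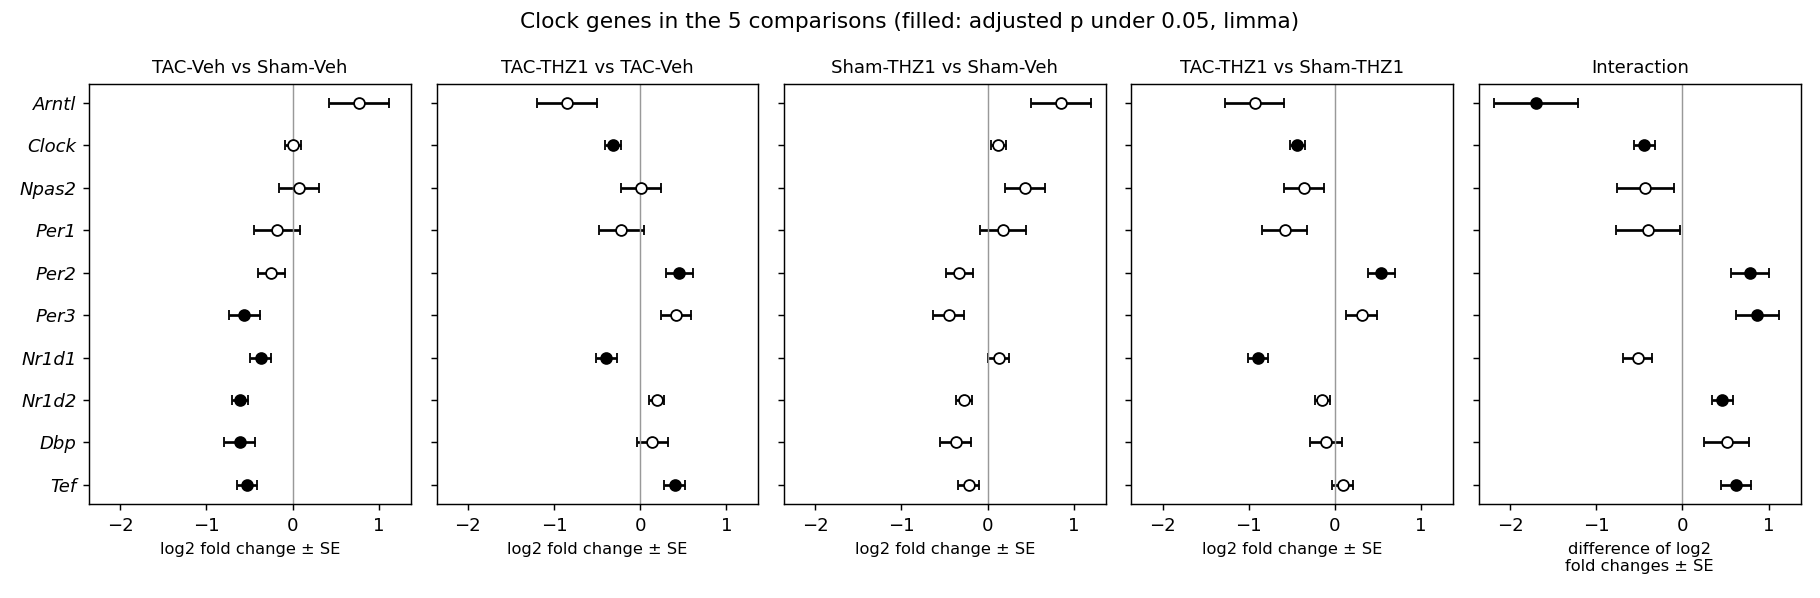
Log2 fold change ± SE (x axis) of each clock gene (y axis) in the 4 comparisons, and the difference of the THZ1 effects between TAC and sham at the right. Filled points passed an adjusted p of 0.05 in limma. With TAC under vehicle the 5 filled points all lie below 0, down to -0.62 for Dbp. The interaction of Arntl, at -1.70, is the farthest from 0.

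In constricted hearts THZ1 was followed by higher Per2 and Tef and lower Clock and Nr1d1 than vehicle. These 2 higher and 2 lower calls among 10 members stand against 15.1% of all genes called higher and 14.2% called lower. Clock and Nr1d1 did not overlap between TAC-THZ1 and TAC-Veh, 2 of 10 where 20.0% of all genes did not. TAC-Veh is shared with the comparison to Sham-Veh, so the directions of the 2 comparisons are not independent. The median log2 fold change was 0.0757 over the members and 0.0145 over all genes.

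Clock was at 903, 817, 723 and 920 normalized counts in TAC-Veh and at 680, 635, 711 and 667 in TAC-THZ1, so every TAC-THZ1 library was lower. The log2 fold change was -0.31 ± 0.09 (adjusted p = 0.0144), with an adjusted p of at most 0.0465 when any library was left out (-0.28 and 0.0325 without TAC-Veh replicate 1). Nr1d1 was at 1630, 1503, 1514 and 1590 in TAC-THZ1, a narrow range below every TAC-Veh library. It fell by 0.39 ± 0.12 on the log2 scale (adjusted p = 0.0222). That difference was -0.22 without TAC-Veh replicate 4, -0.49 without TAC-Veh replicate 1 (adjusted p = 0.00547), and not called without TAC-THZ1 replicate 2 (adjusted p = 0.0566).

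Per2 was at 864, 1099, 959 and 1039 in TAC-THZ1, and only TAC-Veh replicate 1, at 1006, reached that range. Its log2 fold change was 0.46 ± 0.16 (adjusted p = 0.0389), and 0.62 without TAC-Veh replicate 1 (adjusted p = 0.00350). The call was lost without TAC-Veh replicate 2 or 4 or without TAC-THZ1 replicate 2, 3 or 4, with an adjusted p of up to 0.135, and with edgeR (adjusted p = 0.0507). Tef was at 3710, 5147, 4138 and 4448 in TAC-THZ1, overlapping TAC-Veh replicate 3 at 4165. The log2 fold change was 0.40 ± 0.12 (adjusted p = 0.0192). The call was lost without TAC-Veh replicate 1 (log2 fold change 0.30, adjusted p = 0.0530), TAC-Veh replicate 2, or TAC-THZ1 replicate 2 (adjusted p = 0.0725). With these 2 groups fitted alone, none of the 4 was called (adjusted p of 0.0591 for Clock, 0.106 for Per2, 0.115 for Nr1d1 and 0.0997 for Tef). Calls over all genes also fell in that fit, from 29.4% to 10.5%.

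The other members did not pass in that comparison. Arntl was at 178, 54.7, 93.6 and 74.2 in TAC-THZ1, with replicate 1 the highest, and its log2 fold change from TAC-Veh was -0.85 ± 0.35 (adjusted p = 0.0766). Per3 was at 940, 1319, 1080 and 1338 (0.42 ± 0.18, adjusted p = 0.0876). Nr1d2 was at 2979, 3775, 3034 and 3711 (0.19 ± 0.09, adjusted p = 0.110). Dbp, at 1639, 2825, 1985 and 2617, overlapped TAC-Veh over most of its range (0.14 ± 0.18, adjusted p = 0.588). Per1 had a log2 fold change of -0.22 ± 0.26 and Npas2 of 0.01 ± 0.23, and without TAC-Veh replicate 1 they were 0.0640 and -0.0644. Without that library Per3 was at 0.22 (adjusted p = 0.265), Nr1d2 at 0.15 (adjusted p = 0.231), Dbp at -0.0081 (adjusted p = 0.978) and Arntl at -0.78 (adjusted p = 0.131). In the same comparison 4 of 6 cardiomyocyte genes were called higher and 4 of 6 fibroblast genes lower. The summed levels in TAC-THZ1 were 1029254 to 1288756 normalized counts for the former and 24491 to 35878 for the latter, and their part in the clock values was not tested.

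In sham hearts THZ1 gave no call among the 10 members, where limma called 0.0225% of all genes higher and 0.045% lower. DESeq2 and edgeR also called 0. Before adjustment, 3 members had a limma p under 0.05, 1 higher (Arntl) and 2 lower (Per3 and Nr1d2), where 917 of all 13331 genes did. Arntl was at 168, 170, 120 and 267 normalized counts in Sham-THZ1, above or within the Sham-Veh range, with a log2 fold change of 0.85 ± 0.35 (adjusted p = 0.680). Per3 was at 911, 867, 1087 and 883, below every Sham-Veh library (-0.45 ± 0.18, adjusted p = 0.662). Nr1d2 was at 3649, 3791, 3907 and 3506, also below every Sham-Veh library (-0.27 ± 0.09, adjusted p = 0.621). Nr1d1 was at 2781, 3252, 2770 and 2796, above every Sham-Veh library by a small margin (0.13 ± 0.12, adjusted p = 0.923). These 3 genes without overlap, of 10, stand against 11.3% of all genes. With the sham groups fitted alone, or with array weights, Per3 and Nr1d2 were called, where 3.49% and 3.85% of all genes were.

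Dbp was at 2383, 2409, 2909 and 1919 in Sham-THZ1 (log2 fold change -0.37 ± 0.18, adjusted p = 0.744). Tef was at 3936, 3781, 4513 and 4076 (-0.22 ± 0.12, adjusted p = 0.778), and Per2 at 675, 635, 815 and 607 (-0.33 ± 0.16, adjusted p = 0.737). Npas2 was at 69.2, 70.9, 72.1 and 104 against 42.4, 59.4, 61.0 and 70.1 in Sham-Veh (0.44 ± 0.23, adjusted p = 0.771). Clock (0.13 ± 0.09) and Per1 (0.18 ± 0.26) had adjusted p of 0.849 and 0.962.

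Under THZ1, TAC hearts had higher Per2 and lower Clock and Nr1d1 than sham hearts. In this comparison 11.4% of all genes were called higher and 12.8% lower, and 33.4% of all genes, with 3 of the 10 members, did not overlap. Nr1d1 fell to 0.539-fold, from 2900 ± 235 normalized counts in Sham-THZ1 (SD, n = 4) to 1560 ± 61.0 in TAC-THZ1, with a log2 fold change of -0.89 ± 0.12 (adjusted p = 0.000427). Clock fell by 0.44 ± 0.09 on the log2 scale (adjusted p = 0.00348), from 948, 936, 795 and 975 in Sham-THZ1. Both calls held when any library was left out. Per2 rose by 0.54 ± 0.16 (adjusted p = 0.0220), a call lost without Sham-THZ1 replicate 2 or 4 or without TAC-THZ1 replicate 4 (adjusted p of up to 0.0676). Dbp (-0.10 ± 0.18), Tef (0.09 ± 0.12) and Nr1d2 (-0.15 ± 0.09), which had fallen with TAC under vehicle, had adjusted p of 0.712, 0.616 and 0.239 here. Per3, which had fallen there too, was at 0.31 ± 0.18 (adjusted p = 0.213), and Npas2 was at -0.36 ± 0.23 (adjusted p = 0.277). Arntl was lower by a log2 fold change of -0.93 ± 0.35 (adjusted p = 0.0602), and Per1 by -0.58 ± 0.26 (adjusted p = 0.114).

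The difference of the THZ1 effect between TAC and sham was tested as an interaction. It was positive for Per2, Per3, Nr1d2 and Tef and negative for Arntl and Clock, where 4.4% of all genes were called positive and 5.62% negative. Arntl had the farthest value, -1.70 ± 0.49 on the log2 scale (adjusted p = 0.0386). In sham hearts its mean was 100.1 ± 32.5 with vehicle and 182 ± 61.8 with THZ1 (SD, n = 4). In TAC it was 173 ± 57.6 with vehicle and 100.1 ± 54.3 with THZ1, so the means differed in opposite directions. Clock had an interaction of -0.44 ± 0.13 (adjusted p = 0.0367). Per3 had 0.87 ± 0.25 (adjusted p = 0.0387), Per2 0.78 ± 0.22 (adjusted p = 0.0363), Tef 0.62 ± 0.17 (adjusted p = 0.0313) and Nr1d2 0.47 ± 0.12 (adjusted p = 0.0284). Nr1d1, at -0.52 ± 0.17, did not pass (adjusted p = 0.0615), nor did Dbp at 0.51 ± 0.26 (adjusted p = 0.210).

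These interaction calls sat close to the threshold. None of the 6 was called without Sham-Veh replicate 2 or 3, without Sham-THZ1 replicate 1 or 4, or without TAC-THZ1 replicate 2 or 4. The count was 1 without Sham-THZ1 replicate 2, 2 without TAC-Veh replicate 2, 3 without Sham-Veh replicate 4 and 7 without TAC-Veh replicate 1. In the last case the interactions were -1.63 for Arntl, -0.40 for Clock, 0.95 for Per2, 0.67 for Per3, 0.42 for Nr1d2 and 0.52 for Tef, with Nr1d1 added at -0.61 (adjusted p = 0.0221), and Dbp at 0.36 was not called. No sign changed, since Arntl stayed between -2.02 and -1.46 and Per3 between 0.67 and 1.00 when single libraries were left out. The highest adjusted p was 0.0854, for Per3. Calls over all genes moved too, from 1336 to between 690 and 2475.

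The second question was how far mice of a group differed. Arntl had the largest SD of the 10, with a pooled SD within groups of 0.57 on the log2 scale, above 95.4% of all tested genes. Per1 (0.43, 89.9%), Npas2 (0.36, 85.4%), Dbp (0.30, 79.2%), Per3 (0.29, 78.3%) and Per2 (0.25, 73.3%) followed. Nr1d1 and Tef were both at 0.19, above 59.5% and 59.4% of genes, while Nr1d2 (0.13, 36.5%) and Clock (0.13, 35.6%) varied less than the median gene. Spread depends on level, and among the 1000 genes nearest in level the order changed. There Per1 was above 98.8% of genes, Arntl 97.9%, Dbp 97.5%, Per3 95.9%, Per2 94.2%, Nr1d1 83.8%, Tef 79.3% and Npas2 78.4%, and Clock (60.3%) and Nr1d2 (58.1%) were above the median. The median SD was 0.270 over the members and 0.161 over all tested genes. With sham surgery it was 0.219 against 0.0980 under vehicle and 0.168 against 0.0916 under THZ1. With TAC it was 0.359 against 0.218 under vehicle and 0.221 against 0.141 under THZ1. In each of the 4 groups the median over the members was thus above that over all genes. The SD of Nr1d1 fell from 0.19 to 0.0895 without TAC-Veh replicate 4. Without TAC-Veh replicate 1 the SD was 0.341 for Per1, 0.202 for Per2, 0.220 for Per3 and 0.264 for Dbp.

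**Figure D3:**
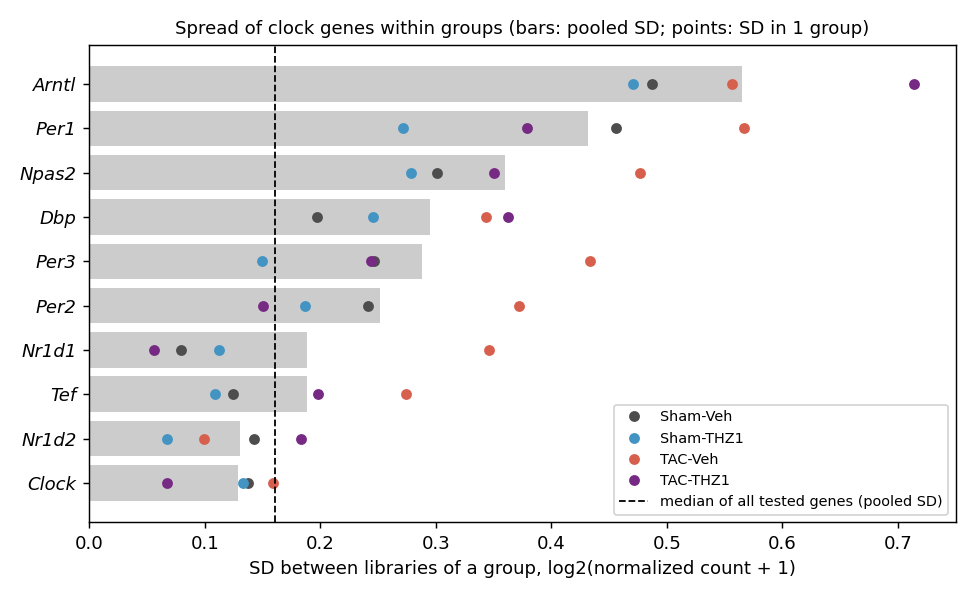
Standard deviation of log2(normalized count + 1) between libraries of a group (x axis) for each clock gene (y axis). Bars are the SD pooled over the 4 groups, points the SD in a single group, and the dashed line the median pooled SD of all tested genes, 0.161. Arntl has the longest bar, 0.57, and 8 of 10 bars pass the line.

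Mice of a group that had more Arntl had less Dbp. Taken as deviations from the group mean, so that differences between groups were removed, Arntl and Dbp had a Pearson r of -0.84 over 16 libraries (exact permutation within groups, two-sided, p = 0.000747, adjusted over 6 pairs 0.00149). Spearman's rho was -0.85 (exact permutation p = 0.000374, adjusted 0.00224). Leaving out the 2 libraries farthest from the median of Arntl gave r = -0.77 (exact permutation p = 0.0160). Over the 4 libraries of each group, r for sham mice was -0.94 under vehicle and -0.998 under THZ1. It was -0.55 with TAC under vehicle and -0.96 under THZ1. In Sham-THZ1, replicate 4 had the most Arntl (267) and the least Dbp (1919) while replicate 3 had the least Arntl (120) and the most Dbp (2909). In TAC-THZ1, replicate 2 had the least Arntl (54.7) and the most Dbp (2825) while replicate 1 had the most Arntl (178) and the least Dbp (1639).

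Some of the targets of the Arntl pair deviated together, and others did not. Dbp and Tef, both PAR bZIP factors, had r = 0.89 (exact permutation p = 0.000280, adjusted 0.00132) and rho = 0.84. Dbp and Per3 had r = 0.85 (exact permutation p = 0.000440, adjusted 0.00132) and rho = 0.80. Without the 2 libraries farthest from the median of Dbp, these were 0.79 (exact permutation p = 0.00386) and 0.74 (exact permutation p = 0.00878). The other 3 pairs did not pass. Arntl and Npas2 had r = 0.53 (exact permutation, adjusted p = 0.113) and rho = 0.35, and r = 0.73 without Sham-Veh replicate 1, where it passed. Arntl and Nr1d1 had r = 0.23 and rho = 0.17, and Nr1d1 and Nr1d2 had r = 0.21 and rho = 0.14 (exact permutation, adjusted p = 0.446 for both r). Without TAC-Veh replicate 4, Arntl and Nr1d1 had r = -0.0585. As a description with no test, Per1 and Per2 had r = 0.78, Nr1d2 and Dbp 0.92, and Arntl and Clock 0.76. Per1 with Dbp had 0.0134, Per2 with Per3 -0.00416, Per1 with Per3 -0.27 and Per2 with Nr1d1 -0.46. The libraries share size factors, and the hour of harvest was not given, so its part in these relations was not tested.

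**Figure D4:**
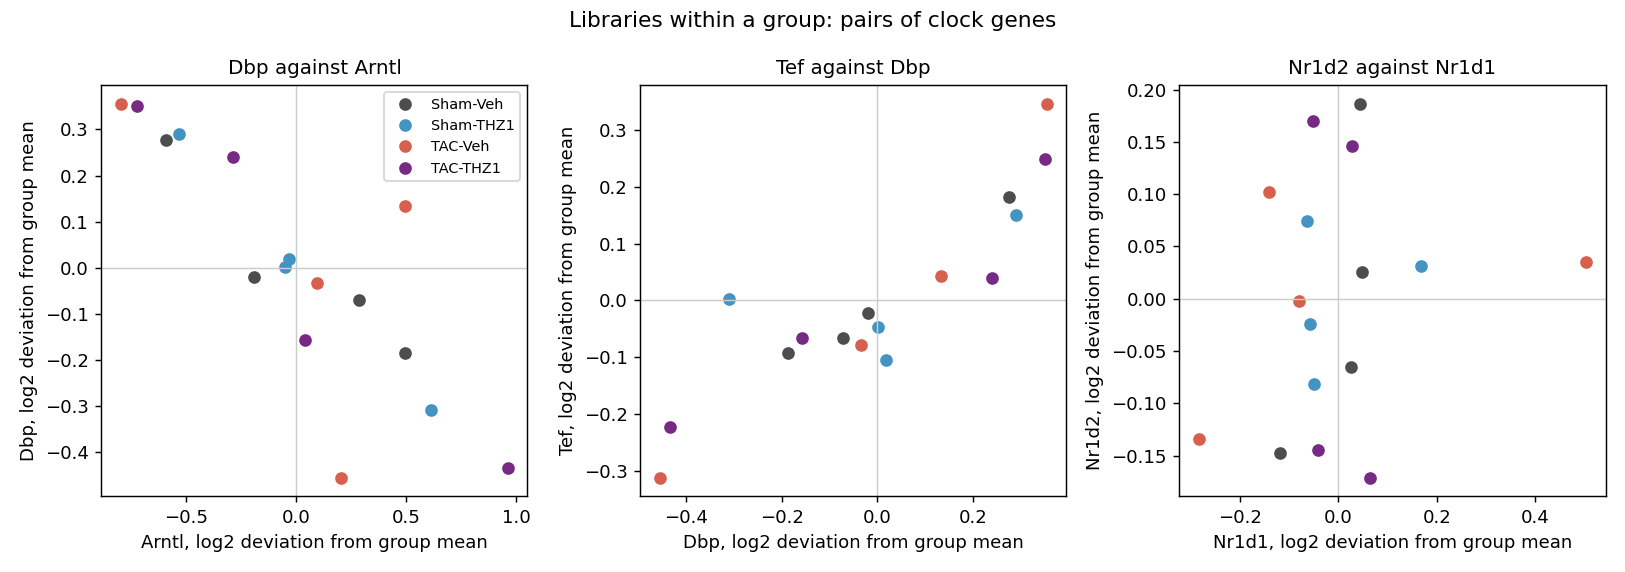
Deviation of each library from its group mean, log2(normalized count + 1), for 3 pairs of clock genes, coloured by group. Dbp falls as Arntl rises (r = -0.84), Tef rises with Dbp (r = 0.89), and Nr1d2 against Nr1d1 has r = 0.21.

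Genes with the most similar deviations were looked up among the 10308 genes whose mean was 100 normalized counts or more, as a description over 16 libraries. Those closest to Arntl were Ankrd29 (r = 0.88), Leprel1 (0.87), Arhgef2 (0.86), Unc119b (0.85) and Cmklr1 (0.84). Those most opposed to Arntl were Tmem57 (-0.91), Gm10762 (-0.82), Pigu (-0.82), Msl3 (-0.80) and Ifrd2 (-0.80). Closest to Dbp were Ifrd2 (0.94), Nr3c2, the mineralocorticoid receptor gene (0.92), Mid1ip1 (0.90), Hlf, the other PAR bZIP gene (0.90), and Gm10762 (0.87). Most opposed to Dbp were Cdk17 (-0.93), Tm6sf1 (-0.91), Gas6 (-0.91), Carhsp1 (-0.91) and Gfpt2 (-0.89). Ifrd2 and Gm10762 were thus on both lists, with opposite signs. When the values themselves were used in place of deviations, the closest genes to Arntl were Unc119b (0.88), Arhgef2 (0.86), Elk3 (0.84), Mmp14 (0.84) and Sh3pxd2b (0.84), and those to Dbp were Slco5a1 (0.90), 3110043O21Rik (0.88), BC057079 (0.87), Frem2 (0.86) and Mllt10 (0.86).

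The rest of the clock was read from 16 further genes, all tested. With TAC under vehicle 2 were called higher and 3 lower, where 21.4% and 23.6% of all genes were. With THZ1 in TAC 2 were called higher and 4 lower, where 15.1% and 14.2% of all genes were. Without TAC-Veh replicate 1 the counts were 2 and 3 with TAC, with Timeless (0.46, adjusted p = 0.0104) in place of Fbxl21. They were 4 and 2 with THZ1 in TAC, with Cry1 and Nfil3 added as higher and Btrc and Rora lost. Hlf, which binds the same D-box as Dbp and Tef, had the largest fall of the 16. It was at 866, 1267, 919 and 959 normalized counts in Sham-Veh, at 247, 335, 546 and 494 in TAC-Veh, and at 544, 864, 637 and 685 in TAC-THZ1. TAC-Veh libraries were all below those of Sham-Veh, with a log2 fold change of -1.36 ± 0.21 (limma, adjusted p = 9.33e-05). With THZ1 in TAC, Hlf rose by 0.80 ± 0.21 (adjusted p = 0.01), and its interaction was 1.19 ± 0.30 (adjusted p = 0.0220). Without TAC-Veh replicate 1 these were -1.14, 0.58 and 0.97, all still called. Nfil3, which competes at D-boxes as a repressor, had log2 fold changes of 0.16 ± 0.14 and 0.24 ± 0.14 and was not called. Without TAC-Veh replicate 1 the latter was 0.36 and was called (adjusted p = 0.0467).

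Among repressors, Bhlhe40 (DEC1) was higher with TAC (0.37 ± 0.13, adjusted p = 0.0316) and lower with THZ1 in TAC (-0.65 ± 0.13, adjusted p = 0.00194), and its relative Bhlhe41 was lower with THZ1 in TAC (-0.42 ± 0.10, adjusted p = 0.00470). The cryptochrome Cry2 fell with TAC by 0.36 ± 0.13 (adjusted p = 0.0340), while Cry1 differed by -0.01 ± 0.17. Without TAC-Veh replicate 1, Cry1 was called higher with THZ1 in TAC (0.55, adjusted p = 0.0144). Csnk1e, a kinase that marks PER proteins for turnover, was lower with TAC (-0.32 ± 0.06, adjusted p = 0.000450) and higher with THZ1 in TAC (0.20 ± 0.06, adjusted p = 0.0202). Fbxl21, which acts on cryptochromes, was called higher with TAC (1.11 ± 0.38, adjusted p = 0.0267) but not without TAC-Veh replicate 1 (0.99, adjusted p = 0.0673), at 2.67 to 32.9 normalized counts over all libraries. Rora, an activator of Arntl, was lower with THZ1 in TAC (-0.22 ± 0.07, adjusted p = 0.0253) but not called without TAC-Veh replicate 1 (-0.19, adjusted p = 0.0556). Btrc, a ligase component that acts on PER, was lower (-0.16 ± 0.06, adjusted p = 0.0457) and also not called without it (-0.14, adjusted p = 0.0796). Of these 16 genes, 0 were called with THZ1 in sham hearts by limma, DESeq2 or edgeR. An unadjusted limma p under 0.05 was found for 1 of them, where 917 of all 13331 genes had one. With TAC under THZ1, 2 were called lower (Btrc and Rora) and 0 higher, where 12.8% and 11.4% of all genes were.

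Of 14 genes known as outputs of the heart clock, 9 fell with TAC under vehicle and Bdh1 alone rose (1.04 ± 0.15, adjusted p = 4.46e-05), where 23.6% of all genes were called lower and 21.4% higher. Besides Kcnip2 and Nampt, the log2 fold changes were -1.53 for Ucp3, -0.94 for Dgat2, -0.85 for Usp2, -0.78 for Pik3r1, -0.70 for Klf15, -0.67 for Lipe and -0.58 for Tcap. The median log2 fold change over the 14 was -0.69, and 10 fell without TAC-Veh replicate 1, the added gene being Wee1 (-0.39, adjusted p = 0.0378). Kcnip2, the potassium channel subunit that Klf15 drives in rhythm, was at 3340, 4144, 3644 and 3806 normalized counts in Sham-Veh and at 1230, 1001, 1741 and 1893 in TAC-Veh (-1.39 ± 0.15, adjusted p = 3.32e-06). Nampt, which makes an NAD precursor, fell by 1.00 ± 0.13 on the log2 scale (adjusted p = 1.85e-05). With THZ1 in TAC, Kcnip2 (0.97 ± 0.15, adjusted p = 0.000311), Nampt (0.63 ± 0.13, adjusted p = 0.00231), Dgat2 (0.70 ± 0.16) and Usp2 (0.47 ± 0.14) rose, and Pdk4 fell by 1.40 ± 0.48 on the log2 scale (adjusted p = 0.0362). Pdk4, a glucocorticoid-responsive gene too, was not called without TAC-Veh replicate 1 (log2 fold change -0.84, adjusted p = 0.0985), while Klf15 (0.71, adjusted p = 0.00754) and Wee1 (0.44, adjusted p = 0.0278) then were. These 4 higher and 1 lower calls of 14 stand against 15.1% and 14.2% of all genes. With THZ1 in sham hearts 0 of the 14 were called by limma, DESeq2 or edgeR. An unadjusted limma p under 0.05 was found for 2 of them, where 917 of all 13331 genes had one. With TAC under THZ1, Bdh1 was called higher and Lipe, Pdk4, Kcnip2 and Ucp3 lower, where 11.4% and 12.8% of all genes were. Several of these genes are also controlled by load and metabolism, and some by glucocorticoids, and the part of these inputs was not tested.

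**Figure D5:**
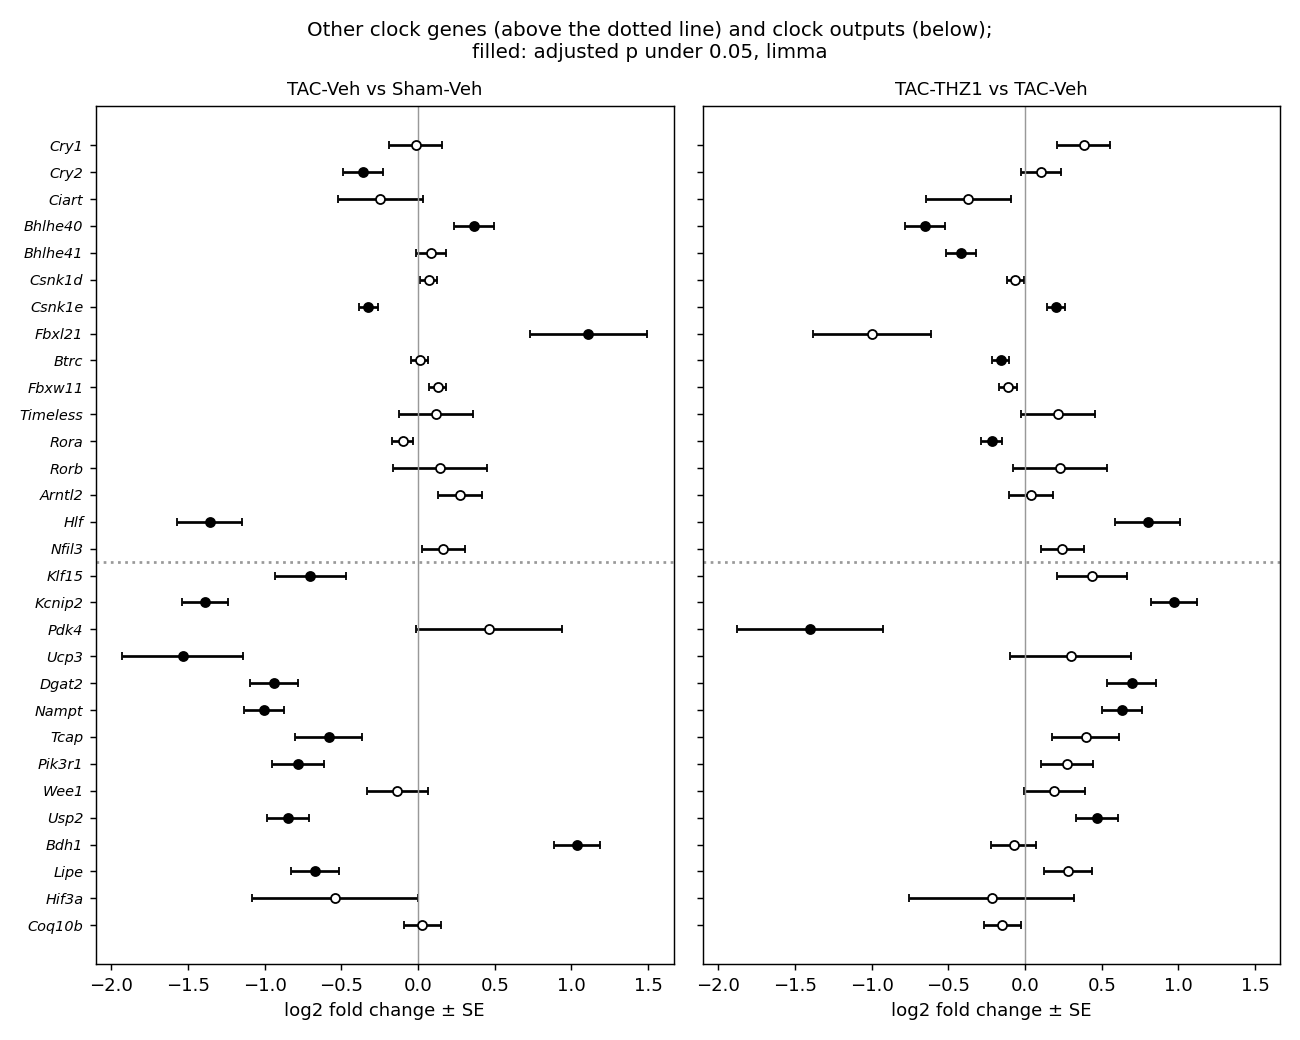
Log2 fold change ± SE (x axis) of 16 further clock genes, above the dotted line, and 14 output genes, below it, with TAC under vehicle (left) and with THZ1 in TAC (right). Filled points passed an adjusted p of 0.05 in limma. Hlf, at -1.36, is the lowest clock gene on the left, and 9 output genes are called lower there.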

How the data were processed

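RNA from 10 to 20 mg pieces of ventricle was made into libraries with a stranded mRNA kit, per the labels. The authors aligned reads to mm9 with TopHat2 2.1.1, counted them per GENCODE gene with HTSeq in its reverse-stranded mode, and divided each library by a DESeq2 size factor (0.749 to 1.40). The signal as deposited is thus reads per gene over a size factor, called a normalized count here. It covered 22372 genes, 4484 of them at 0 throughout, and 100% of values were whole multiples of 1 read within a tolerance of 0.01, which gave 21.4 to 35.8 M (mega) recovered reads per library. Replicates of a group differed by 2.98 to 98.0 in chi-square per degree of freedom, above counting noise. The labels number 4 replicates per group and give no batch, and where replicates are not separate mice, p-values measure only the spread between samples.

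The test was limma 3.58.1 (R 4.3.3, eBayes with trend) on log2(normalized count + 1), fitted with 1 mean per group to all 16 libraries and 13331 genes with at least 10 normalized counts in at least 4 libraries. P-values were adjusted over all genes by Benjamini and Hochberg, with calls at an adjusted p under 0.05. A fold change on this scale understates the change of low genes. Pairs of genes were tested by exact two-sided permutation of deviations within groups (331776 arrangements), adjusted over 6 pairs. On the recovered reads edgeR called 6067 genes with TAC under vehicle, where limma called 6003. The scripts were tested on simulated data. The genes named were the 10 members, 16 further clock genes and 14 outputs where called. The 5 nearest genes outside the members by each measure were named too. Cry1, Nfil3 and marker genes were added after their values were seen. Some genes of the lists are not reported here. Members, lists and pairs were chosen with earlier results of these data known. Alternatives covered pseudocount, filter, scaling, weights, the groups fitted, thresholds, the replicate block, DESeq2 1.42.0, edgeR 4.0.16 and each library left out. Names and positions came from GENCODE on NCBIM37, to which every gene matched.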

Additional observations from a re-analysis of the deposited data

Results flagged for a closer look

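In 5 of 40 groups of 4 libraries a single value lay far from the rest, where chance alone flags about 1 group in 20. Npas2 was at 104 normalized counts in Sham-THZ1 replicate 4, with the next library at 72.1, and at 98.8 in TAC-Veh replicate 4, with the next at 54.5. Per1 was at 2354 in TAC-Veh replicate 1, the library with the high glucocorticoid-responsive genes, with the next at 1099. Nr1d1 was at 2440 in Sham-Veh replicate 1, below the next lowest at 2698, and at 3252 in Sham-THZ1 replicate 2, above the next at 2796. The low Sham-Veh value and the high Sham-THZ1 value lie at the far ends of groups that did not overlap.

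By the interaction test, the THZ1 contrast was not the same in constricted as in sham hearts for 6 members, with log2 differences of -1.70 for Arntl, -0.44 for Clock, 0.78 for Per2, 0.87 for Per3, 0.47 for Nr1d2 and 0.62 for Tef. The means of Arntl and Clock were higher with THZ1 in sham and lower in TAC, and the means of Per2, Per3, Nr1d2 and Tef the reverse. Among the THZ1 contrasts of these genes, only those of Clock, Per2 and Tef in TAC were called. Because the hour of harvest was not given in the sources used here, a difference in hour between the groups cannot be told apart from a difference in treatment.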

How the results depend on the processing

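Over 5 comparisons of 10 members and their alternatives, 1379 results kept direction and side of the threshold, 113 lost the call, 29 gained it and 19 changed sign, none of these called. With TAC under vehicle (5 called), 3 were called with the groups fitted alone (Nr1d2, Dbp and Tef), 0 past the fold thresholds of the study, 2 at an adjusted p under 0.01, and 4 to 6 with a library left out. The study set a log2 threshold of 1 for rises with TAC and 0.89 for falls with THZ1 in TAC. Here they were applied in either direction. For the other comparisons, where the study's methods give no threshold, 1 was used. With THZ1 in TAC (4 called) there was 1 with array weights (Nr1d1), 0 with the groups alone, with the fold thresholds or under 0.01, and 1 to 6 with a library left out (1 without TAC-THZ1 replicate 2, 2 without TAC-Veh replicate 2). With THZ1 in sham (0 called) there were 2 with array weights or the groups alone. With TAC under THZ1 (3 called) there were 5 with array weights or the groups alone and 0 past the fold thresholds. Calls over all genes moved too with array weights and with the groups alone. They went from 24.2% to 37.6% and 33.1% with TAC under THZ1, and from 29.4% to 18.1% and 10.5% with THZ1 in TAC. With TAC under vehicle they went from 45.0% to 37.2% and 35.5%, and with THZ1 in sham from 0.0675% to 3.85% and 3.49%. For the interaction (6 called) there was 1 past the fold threshold (Arntl), 0 under 0.01, and 0 to 7 with a library left out. DESeq2 called 6, 4, 0, 4 and 7 members and edgeR 5, 3, 0, 3 and 6. The replicate block gave 6, 5, 0, 4 and 5, and the numbers did not pair the samples, since 24 same-number pairs had correlations of -0.43 to 0.16, with 2 over 0.1. The cause of these differences was not tested.

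Sign changes were in small values. With TAC under vehicle, Npas2 was -0.0699 with quantile normalization and -0.16 to 0.19 with a library left out, and Clock was -0.0058 with array weights and -0.0562 to 0.0754. With THZ1 in TAC, Npas2 was -0.0018 with upper quartile scaling, -0.0605 with array weights, -0.0256 with DESeq2, -0.0280 with edgeR, and -0.14 to 0.24 with a library left out. Leaving out a library gave -0.36 to 0.0640 for Per1 and -0.0081 to 0.29 for Dbp there, and -0.22 to 0.0413 for Dbp with TAC under THZ1. The correlation of Arntl with Nr1d1 ranged from -0.0585 to 0.34 and that of Arntl with Npas2 from 0.39 to 0.73. The pooled SD of Nr1d1 ranged from 0.0895 to 0.197. Under the replicate block, Arntl with Dbp stayed at -0.81.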
